A study of Mus musculus with 2 samples.

Results

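Gse1 and Irf8 are neighbouring genes on mouse chromosome 8, and the locus that holds them was examined for reads of a chromatin immunoprecipitation against the transcription factor Scl (also called Tal1). The 570 kb locus runs from 122.75 to 123.32 Mb in build mm9, with Gse1 near 122.75 to 123.11 Mb and Irf8 near 123.26 to 123.28 Mb. The same locus is near 123.11 to 123.68 Mb in build mm8. These 2 genes, of 49997 in the RefSeq gene table, were chosen on the read counts of the locus in both samples, so those counts are a description and carry no test. In the locus, 9 enriched regions were called in sample 1, of 1521 in the whole genome. In sample 2, 5 were called of 783.

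The cells were HPC-7, an early mouse blood progenitor line that the labels derive from embryonic stem cells, grown in medium conditioned with stem cell factor. Fixation was with formaldehyde at 0.4%, and chromatin fragments of 200 to 500 bp were precipitated with an antiserum against Scl. DNA of 1 precipitation was divided into 3 portions: lanes 7 and 8, read at 1 site, form sample 1, and the portion read at another site is sample 2. The portions are therefore technical replicates of 1 experiment in 1 line, every interval covers counting error only, and no control library was used here. Expression was not measured, so the labelled cell type was not checked against marker genes.

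Scl is a basic helix-loop-helix protein that pairs with E proteins such as Tcf3 and binds E-box sites. In blood cells it forms a complex with Lmo2, Ldb1 and a GATA factor, and the complex can contact DNA at an E-box, at a GATA site or at both. Irf8 is an interferon regulatory factor that is needed for monocytes and dendritic cells and restrains granulocyte production. Gse1 is a coiled-coil protein found with the CoREST histone deacetylase and demethylase complex.

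Sample 1 held 5632119 distinct reads (chromosome, strand and 5′ end counted once) and sample 2 held 4150610. That is a genome average of 2.96 and 2.18 reads per kb. Each read was moved by 0.5 times the fragment length, estimated at 115 bp and 124 bp for samples 1 and 2, and counted in 200 bp windows. These estimates are below the 200 to 500 bp given for the chromatin fragments, and the cause was not tested. A fold is the read count of a region's best window divided by the larger of the genome average and the average of the surrounding 10 kb. In sample 1, 34 of the 11400 windows of the locus (0.298%) were called, beside 0.00729% of 52836439 windows in the genome. In sample 2, 20 of 11400 (0.175%) were called, beside 0.00431% of 52613117. The locus was selected on these counts, so nothing is read from the difference.

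The 9 regions are numbered here by position. All 9 were called in sample 1, and regions 1, 5, 6, 7 and 8 were also called in sample 2. Regions 1 to 8 lie in the Gse1 span, region 9 lies between the genes, and 0 lie in the Irf8 span. Positions in the samples were paired without converting builds: read ends of both samples coincided most often at an offset of 362077 bp in 12 of 12 pieces of 50 kb.

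The sequences of 3 regions are shown first, because regions 5 and 6 hold the most reads of the locus and differ in the sites they carry, while in region 1 both kinds of site overlap. They were assembled from sample 2 reads at their mm8 positions and are given on the plus strand, 5′ to 3′. Capitals mark GATA sites (GATAA or GATAG, each after an A or a T) and E-boxes (CANNTG), on either strand, and overlapping sites form 1 run of capitals. Region 1 is shown over chr8:123116853-123117093, region 5 over chr8:123256001-123256300 and region 6 over chr8:123257751-123258050.
region 1: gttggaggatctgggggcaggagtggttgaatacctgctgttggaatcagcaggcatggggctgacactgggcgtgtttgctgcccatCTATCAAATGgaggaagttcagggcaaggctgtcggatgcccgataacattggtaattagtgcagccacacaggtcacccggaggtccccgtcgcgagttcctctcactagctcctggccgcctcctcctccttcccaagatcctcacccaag
region 5: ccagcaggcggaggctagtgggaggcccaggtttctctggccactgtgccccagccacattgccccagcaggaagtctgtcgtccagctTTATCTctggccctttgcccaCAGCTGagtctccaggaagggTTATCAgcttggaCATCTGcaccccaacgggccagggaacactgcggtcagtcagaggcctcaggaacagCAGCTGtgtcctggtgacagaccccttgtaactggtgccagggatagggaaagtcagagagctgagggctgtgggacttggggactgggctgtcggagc
region 6: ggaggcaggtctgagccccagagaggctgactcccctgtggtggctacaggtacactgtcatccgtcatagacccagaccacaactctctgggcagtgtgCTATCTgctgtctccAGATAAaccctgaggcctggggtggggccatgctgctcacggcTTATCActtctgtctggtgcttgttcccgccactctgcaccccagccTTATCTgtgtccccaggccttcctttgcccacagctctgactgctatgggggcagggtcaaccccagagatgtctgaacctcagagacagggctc

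Region 6 is the strongest of the locus by reads (chr8:122895601-122896100 in mm9, chr8:123257701-123258150 in mm8). Its best window held 105 distinct reads in sample 1 and 68 in sample 2. The fold was 14.9 (95% Poisson interval 12.2 to 18.1) in sample 1 and 17.2 (13.3 to 21.8) in sample 2, and the intervals overlap. By reads it ranked 10 of 1521 in sample 1 and 18 of 783 in sample 2. In sample 1 the region next above it, on chromosome 11, held 119 reads, and in sample 2 the one next above, on the same chromosome, held 69.

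Region 5 lies 1800 bp from region 6 between summits in sample 1 and 1750 bp in sample 2 (chr8:122893851-122894300 in mm9, chr8:123255951-123256350 in mm8). Its best window held 89 reads in sample 1 and 46 in sample 2. The fold was 12.5 (10.0 to 15.3) and 11.8 (8.64 to 15.7), and its ranks by reads were 15 and 36. Between the summits of regions 5 and 6 the lowest window held 0 reads in both samples, so the reads form separate peaks.

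By fold these regions stood lower than by reads. Region 6 ranked 395 by fold in sample 1 and 293 in sample 2, and region 5 ranked 846 and 639. The median fold over all regions was 12.9 in sample 1 and 16.02 in sample 2. The surrounding 10 kb, which includes the reads of both peaks, was at 11.9 times the genome average for region 6 in sample 1 and 9.06 times in sample 2. For region 5 it was at 12.04 and 8.93 times. With the reads within 500 bp of each locus summit left out of the background, an alternative chosen after seeing the data, the mean fold of the samples rose from 16.04 to 49.0 for region 6 and from 12.1 to 37.1 for region 5. Other regions of the genome were not recomputed in this way.

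**Figure D1:**
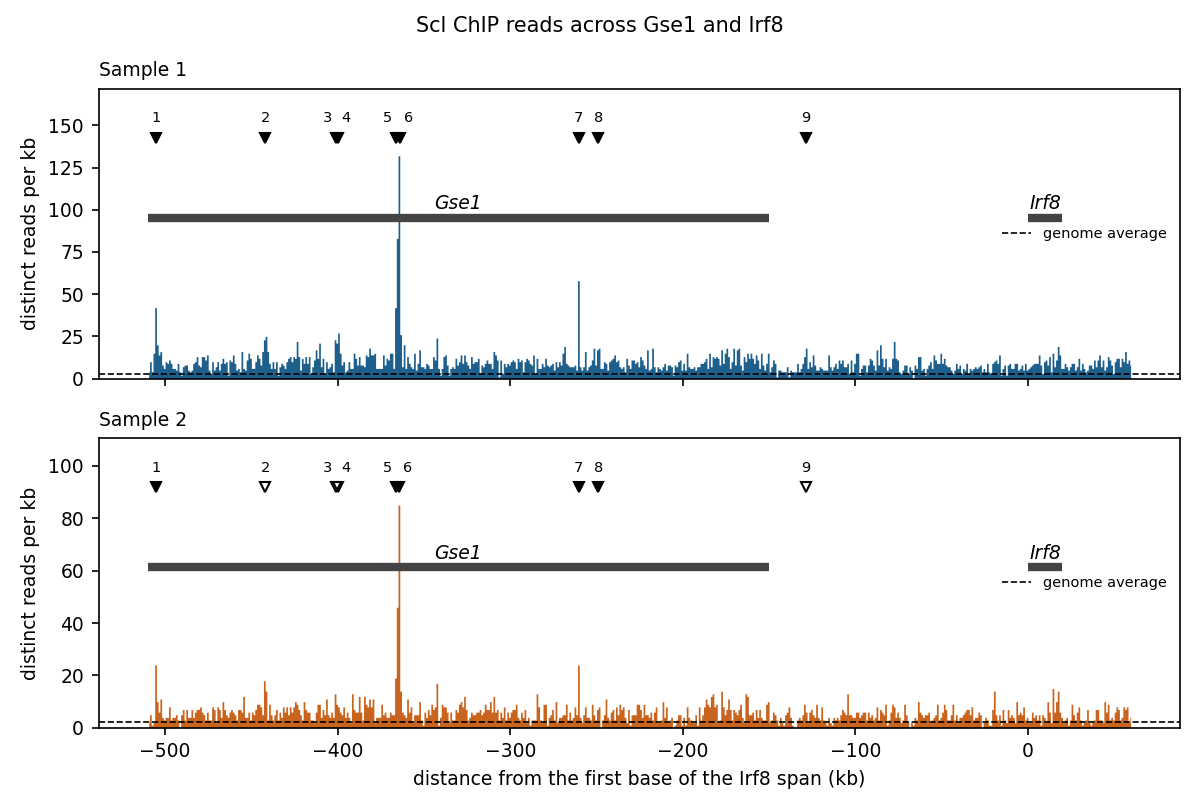
Distinct reads per kb over the locus in each sample, against distance in kb from the left end of the Irf8 span, with the gene spans, the genome average (dashed) and the regions marked by filled (called) or open (not called) triangles. The highest points are at regions 5 and 6, and no called region lies in the Irf8 span.

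Regions 7 and 1 followed by reads, in that order in sample 1 and in the opposite order in sample 2. Region 7 lies 103750 bp past region 6 (chr8:122999401-122999800 in mm9, chr8:123361501-123361850 in mm8). It held 40 reads in sample 1 and 20 in sample 2, with folds of 15.6 (11.2 to 21.3) and 15.4 (9.40 to 23.8). Region 1, at the left edge of the Gse1 span (chr8:122754701-122755100 in mm9, chr8:123116801-123117150 in mm8), held 34 and 23 reads, with folds of 12.1 (8.41 to 17.0) and 16.7 (10.6 to 25.01). The 2 samples' intervals overlap for both regions.

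Region 8 is the weakest region called in both samples (chr8:123010901-123011200 in mm9, chr8:123373051-123373250 in mm8). It held 19 reads in sample 1, a fold of 8.48 (5.11 to 13.2), and 11 reads in sample 2, a fold of 10.2 (5.08 to 18.2). Of the 5 regions called in sample 2 it had the fewest reads and the lowest fold.

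Regions 2, 3, 4 and 9 were called in sample 1 and not in sample 2. Region 2 (chr8:122818001-122818200 in mm9) held 18 reads in sample 1, 6.52-fold, and 10 in sample 2, 6.10-fold. Region 3 (chr8:122858701-122859000) held 18 reads, 7.09-fold, and 9 reads, 6.52-fold. Region 4 (chr8:122859901-122860200) held 19 reads, 7.42-fold, and 8 reads, 5.97-fold. These 3 regions exceeded their local background in both samples, and their fold intervals overlap between the samples. They were found through sample 1, and each sample 2 value is that of the fullest window in the same span. Uncalled windows of sample 2 elsewhere reached such folds too, up to 7.02 between the genes. The sample 2 folds are therefore no support for these regions.

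Region 9 (chr8:123131151-123131350 in mm9) is outside the Gse1 span. It held 12 reads in sample 1, 6.52-fold (3.37 to 11.4), and 3 in sample 2, 2.94-fold (0.607 to 8.60).

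**Figure D2:**
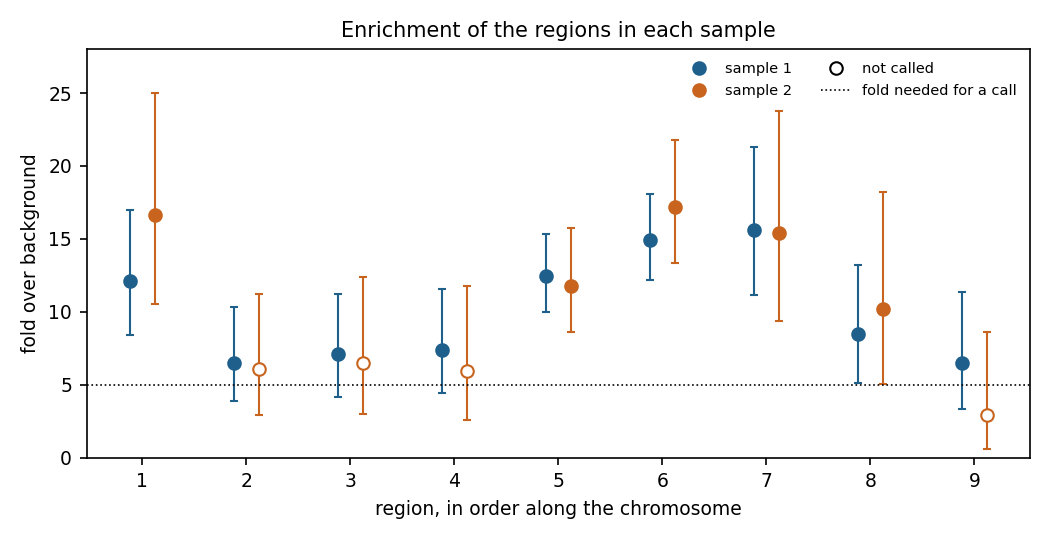
Fold of the best 200 bp window of each region over its background in samples 1 and 2, with exact Poisson 95% intervals open circles for regions not called and a dotted line at the fold threshold of 5. Regions 1, 5, 6 and 7 lie between 11.8 and 17.2 in both samples, and region 9 of sample 2 lies lowest at 2.94.

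Ordered by the adjusted p of the calling test, the weakest called window of the locus in sample 1 held 14 reads at 5.43-fold, and the strongest uncalled window outside the regions (chr8:122849351-122849550 in mm9) held 12 reads at 5.66-fold. In sample 2 the weakest called window held 11 reads at 10.2-fold, and the strongest uncalled one in the same order, which is region 2, held 10 at 6.10-fold; by fold alone other uncalled windows stood higher, up to 7.02 at chr8:123517751-123517950 among those between the genes.

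The distance from the median plus-strand end to the median minus-strand end was taken within 300 bp of each summit. At regions 1, 5, 6, 7 and 8 it was below the 200 to 500 bp given for the chromatin fragments. It is therefore not read as fragment size. In samples 1 and 2 it was 126 and 167.5 bp for region 6, and 157 and 132.5 bp for region 5. For region 1 it was 121.5 and 133.5 bp, for region 7 the values were 77.5 and 137 bp, and for region 8 they were 104 and 129 bp. All these distances are positive: plus-strand reads lie to the left of minus-strand reads, the order that fragments around a common point give. Summits were placed where the moved reads of both strands pile up, which favours this order in advance. Nothing about binding is therefore read from the sign.

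Over all regions of sample 1 the median was 120 bp (quartiles 72 and 153.5), and over those of sample 2 it was 119 bp (46 and 159.5). Of the regions called only in sample 1, regions 2, 3 and 4 had 145, 173.5 and 107 bp in that sample. The value of region 2 depended on the distance searched: with 500 bp each side it was 50 bp in sample 1, and in sample 2 it went from 202.5 to 127 bp. Region 9 had 55.5 bp, from 6 plus and 6 minus ends, which is below the lower quartile. Its sample 2 value of 199 bp rests on 1 plus and 3 minus ends.

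**Figure D3:**
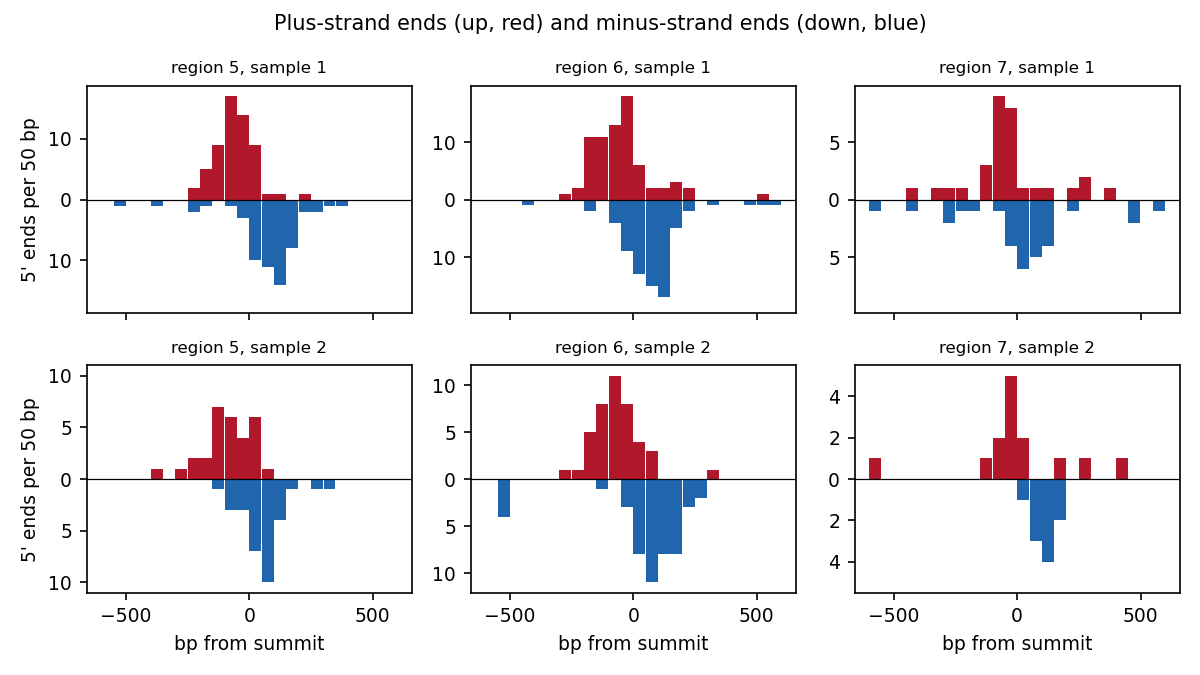
Plus-strand and minus-strand 5′ ends in 50 bp bins around the summits of regions 5, 6 and 7 in each sample, plus ends drawn upwards and minus ends downwards, against distance from the summit in bp. Most plus-strand ends lie to the left of most minus-strand ends in all panels, with median distances from 77.5 to 167.5 bp.

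The lanes of sample 1 were not compared when the locus was chosen, so their split could be tested. Lane 7 gave 28.6% of the distinct reads of both lanes. In the 9 regions its share ran from 23.1% to 38.1%. By a two-sided exact binomial test with Benjamini-Hochberg adjustment over the 1521 regions of sample 1, 0 of 9 differed from the overall split, beside 3 of 1521 (0.197%) in the genome. At an unadjusted p under 0.05 the counts were 0 of 9 and 55 of 1521. Region 5 had 42 reads from lane 7 and 75 from lane 8 (unadjusted exact binomial p = 0.0826), and region 6 had 40 and 101.

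Sample 1 gave 57.6% of the distinct reads of both samples. In the 9 regions its share of the reads within 200 bp of the summit ran from 60.7% for region 1 to 75% for region 9. All 9 shares were above the overall share, but all 9 regions were called in sample 1 and some only there. That choice favours a higher share of sample 1. The counting interval of each share also includes the overall share, with the highest lower limit at region 5 (56.9% to 71.9%). No difference between the samples is therefore read from these shares. Some read ends coincided between samples. Within 300 bp of the region 6 summit, 31 ends were in both samples, of 138 in sample 1 and 84 in sample 2. At region 5, 16 were in both, of 113 and 59. Ends also coincide by position alone where reads are dense: in the 50 kb piece that holds these regions, 74 ends coincided at the offset used and 47 at the next best one.

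Motif sites were searched on both strands within 100 bp of each sample 2 summit. Over all 783 regions of sample 2, 41.3% held a GATA site, 53.9% an E-box, 15.7% the E-box CAGCTG, 44.3% an ETS core (GGAAG or GGAAA, each after an A or a C) and 22.0% a RUNX core (TGTGGT, or the same with C as its central letter, TGCGGT). Each CAGCTG site is also counted as an E-box. Reads covered a median of 69.7% of the bases searched, so these shares are of what was read. A match describes the letters and is no proof of a binding site.

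All 5 regions called in both samples held a GATA site. They were read at 76.1% to 100% of their bases, beside a median of 69.7% over all sample 2 regions. Their sites and the shares over all regions are thus not at like coverage. Region 5, read at 100% of its bases, held 2 GATA sites, 3 E-boxes of which 2 were CAGCTG, 2 ETS cores and 1 RUNX core. One GATA site of region 5 stands 7 bases after an E-box on the minus strand (CAGATGTCCAAGCTGATAA, chr8:123256132-123256150). This arrangement, an E-box followed after 7 to 9 bases by a GATA site, is the one known for the Scl and GATA complex, and 5.49% of the sample 2 regions held one.

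Region 6, also read at 100%, held 4 GATA sites, 1 ETS core, 1 RUNX core and 0 E-boxes. The 2 strongest peaks of the locus thus differ in that an E-box was found in region 5 and not in the window of region 6. Regions 7 and 8 were read at 79.6% and 76.1% of their bases. Region 7 held 2 GATA sites and 1 E-box, and region 8 held 1 GATA site and 1 E-box. Region 1, read at 99.0%, held 1 GATA site, 1 E-box and 1 ETS core.

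Of the regions called only in sample 1, region 3 held 1 GATA site and 2 ETS cores, region 4 held 1 E-box, region 2 held 1 ETS core and region 9 held 2 E-boxes. Only 46.8% of the bases of region 3 and 42.3% of those of region 9 were read, so sites there may be unseen.

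**Figure D4:**
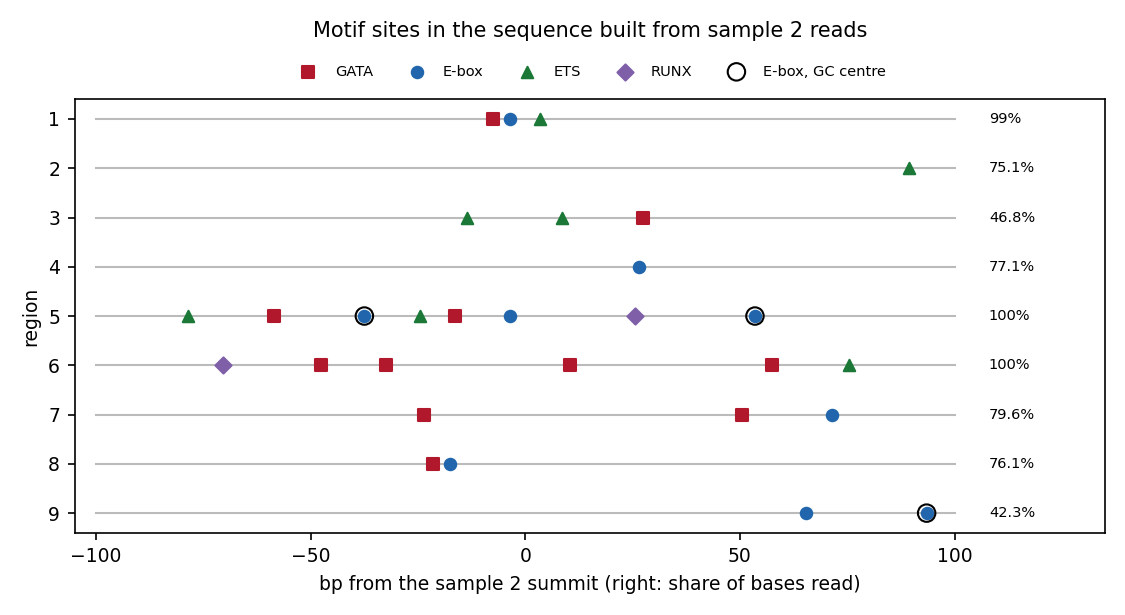
Positions of GATA, E-box, ETS and RUNX sites in bp from the sample 2 summit of each region, with the share of bases read at the right and a ring around E-boxes with a GC centre. GATA sites appear in regions 1, 3, 5, 6, 7 and 8, and region 6 shows no E-box.

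The 20 kb Irf8 span held 191 distinct reads in sample 1 and 112 in sample 2, which is 9.55 reads per kb (95% interval 8.244 to 11.005) and 5.60 (4.61 to 6.74). Its fullest window in sample 1 held 8 reads, 4.44-fold (1.92 to 8.76), and the same place in sample 2 held 1 read. The fullest window in sample 2 was elsewhere, with 6 reads at 5.08-fold (1.87 to 11.1), and sample 1 held 1 read there. Neither window was called, and the samples did not share a fullest window.

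Read density was raised over the whole locus. It was 9.55 reads per kb in sample 1 and 5.73 in sample 2, which is 3.22 and 2.62 times the genome average. Outside the called regions it was still 8.76 and 5.34 reads per kb. The Gse1 span had 10.5 and 6.34 reads per kb, and the stretch between the genes had 7.49 and 4.60. The 2 Mb before the locus had 6.41 and 4.30, and the 2 Mb after it had 8.57 and 5.60. The median 10 kb bin of the locus held 90 reads in sample 1, beside 29 on chromosome 8 and 18 in the genome, and 55 in sample 2, beside 21 and 14. The raised density thus reaches beyond the gene spans and beyond the locus. Its part in the folds was not tested beyond the local background used.

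Promoters were placed through their sequence, since RefSeq gives them in build GRCm38.p6. The table has 32851 windows of 27025 genes, each from 250 bases before a start to 50 after it, with 3 windows for Gse1 and 2 for Irf8. Those of each gene that matched a sample 2 read are shown, 250 bases before the start on the gene's strand, with E-boxes in capitals: Gse1 window 2 is chr8:120535607-120535856 and Irf8 window 2 is chr8:120738389-120738638.
Gse1 window 2: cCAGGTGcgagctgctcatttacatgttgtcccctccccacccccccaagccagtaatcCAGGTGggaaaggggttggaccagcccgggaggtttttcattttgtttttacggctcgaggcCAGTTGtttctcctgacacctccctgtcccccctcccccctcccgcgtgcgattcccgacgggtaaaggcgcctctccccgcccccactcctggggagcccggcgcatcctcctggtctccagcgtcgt
Irf8 window 2: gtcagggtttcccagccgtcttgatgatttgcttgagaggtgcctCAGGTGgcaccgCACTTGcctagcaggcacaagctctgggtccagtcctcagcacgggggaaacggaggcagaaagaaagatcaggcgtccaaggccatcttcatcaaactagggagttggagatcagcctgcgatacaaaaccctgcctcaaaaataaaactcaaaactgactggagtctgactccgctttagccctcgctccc

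Irf8 window 2 matched 2 distinct sample 2 reads exactly and Irf8 window 1 matched 0. Gse1 windows 1, 2 and 3 matched 0, 1 and 0. Over all windows 35.1% matched at least 1 read, 10.5% at least 2 and 2.96% at least 3. Each of these 5 windows thus held few reads. Within 1 kb of the placed start, Irf8 window 2 had 14 read ends in sample 1 and 8 in sample 2, and Gse1 window 2 had 14 and 6.

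Distances were measured in mm8 from Gse1 window 2 and Irf8 window 2, the windows that sample 2 reads placed. The summits of regions 1 to 8 lie upstream of the start of Gse1 window 2, from 305 kb for region 1 to 60.2 kb for region 7 and 48.7 kb for region 8. Gse1 has another start further upstream: in GRCm38.p6 window 1 lies 46991 bp before window 2, which is near the distance of region 8 from window 2. Window 1 matched no read and was not placed in mm8, so no distance from it was measured. The Gse1 span used here begins near region 1, upstream of the Gse1 windows in the table, and no annotation of that stretch was used here. Regions 5 and 6 are 166 and 164 kb upstream of the start of window 2, and 368 and 367 kb upstream of the placed Irf8 start. Region 9 is 71.5 kb past that Gse1 start and 131 kb upstream of the Irf8 start. In the RefSeq order 5 protein-coding genes start between Gse1 and Irf8, among them Gins2 of the replicative helicase, Emc8 of the endoplasmic reticulum membrane complex and Cox4i1 of cytochrome c oxidase. No region was tied to a gene by these data.

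No GATA site was found in the 250 bases before the start in any of the 5 windows of the members, beside 26.5% of all windows with one. An E-box was found in Gse1 window 2, with 3, and in Irf8 window 2, with 2, beside 66.2% of all windows.

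Other genes of the same pathways were described by the fullest promoter window of each. Of 8 interferon regulatory factor genes in the table, Irf8 included, 3 matched 0 reads and 5 matched 1 or 2; Irf1 and Irf7, both with 2, were level with Irf8. Of 10 genes that act with Irf8 in myeloid and dendritic cells, 8 matched 0, and Ikzf1, a lymphoid zinc finger factor, had the most with 2. Of 7 genes of the CoREST complex, 6 matched 0 and Zmym2 matched 2. Of 7 genes of the Scl complex and its partners, 3 matched 0, 3 matched 1 or 2, and Cbfa2t3, a corepressor that joins the Scl complex, matched 12. Over all 27025 genes, 16764 matched 0 and 943 (3.49%) at least 3. The genes Spi1, Cebpe, Ets1, Csf1r, Hdac1 and Lmo2 had no entry.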

How the data were processed

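Scl precipitation DNA of HPC-7 cells was read in 2 samples, which form 1 group, so no groups were compared. Alignment to mm9 was with the Solexa software for sample 1, and to mm8 with Eland for sample 2, per the labels and the deposited text. Software versions: not given in the sources used here. A position, a strand and a score were deposited for each read of sample 1, and only the choice of reads without mismatches used the score. For that choice, read length less the score was assumed to be the number of mismatches. Whether all sample 1 reads are uniquely placed is not stated in the sources used here. Positions, sequences and numbers of genome matches were deposited for sample 2, whose regions were called from uniquely placed reads only. The read sets of the samples may therefore differ in this respect.

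Over the whole genome, 200 bp windows at 50 bp steps were tested against the background (one-sided exact Poisson, effective length 1.9e9 bp, Benjamini-Hochberg). Calls needed an adjusted p under 0.01, a 5-fold excess and no strand with less than 20% of the reads, and calls up to 200 bp apart were joined. The fragment length was that with the most plus and minus pairs after a running mean of 11 bp. The calling was run on simulated reads with a uniform background and isolated added sites. That setting does not cover the raised density or the neighbouring peaks of this locus, so nothing is read from it here. Python 3.11.15, numpy 2.4.6, scipy 1.17.1, pandas 2.3.3 and matplotlib 3.10.9 were used.

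The text names both genes, every region called in the locus, the fullest window of a gene without a region, the regions next in rank and the windows nearest to the threshold. The members and lists were chosen with earlier results of these data known. Alternatives changed the background, window, genome length, duplicates, lanes, thresholds, mismatches, fragment length and the motif and promoter settings. Reads without a position were not used.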

Additional observations from a re-analysis of the deposited data

How the results depend on the processing

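Regions 1, 5, 6 and 7 were called in 13 of 13 settings in sample 1 and in 11 of 11 in sample 2, and 0 regions were called in the Irf8 span in any of them. Region 8 was called in 10 of 13 and 10 of 11, and regions 2, 3, 4 and 9 in 9, 10, 11 and 7 of 13 in sample 1. The count in sample 1 fell from 9 to 5 with 400 bp windows, to 4 with lane 7 alone and to 4 at an adjusted p under 0.001 and fold 10. Counting all reads added chr8:123105801-123106050, and an adjusted p under 0.05 with fold 3 added chr8:122849351-122849550, both in sample 1.

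The mean fold of region 5 was 12.1, and it was 27.2 with a 50 kb background, 7.32 with 5 kb and 7.60 with 400 bp windows. With lane 7 in place of sample 1 and sample 2 unchanged the mean was 13.3, while the lane 7 fold itself was 14.8. The mean was 12.8 from reads with no mismatch and 37.1 without the regions in the background. The mean fold of region 6 was 16.04, and the same settings gave 36.3 with 50 kb, 9.40 with 5 kb, 9.84 with 400 bp windows and 49.0 without the regions. The cause was not tested beyond the settings' own construction. Leaving out 1 sample returns the fold of the other, so it says nothing about the stability of these means. Over all settings, 148 values of the fold stayed within their spread and 38 did not. The spread was the Poisson interval of a region or the standard deviation of a mean. Among the 148 are the values that leave out 1 sample, which always stay within it. Those with the longer genome length are also among them, and could not change because the local background was the larger. Of the strand distances, 69 stayed within it. With 500 bp each side, that of region 2 was 50 bp (sample 1) or 127 bp (sample 2), and that of region 9 in sample 2 went from 199 to -18.0 bp. Of the 5 shared regions, 4 held an E-box within 100 bp and 3 within 50 bp. The numbers of shared regions with a GATA site, with CAGCTG or with the spaced E-box and GATA arrangement did not change. Site numbers within a region did change. Within 50 bp region 6 held 3 GATA sites and no ETS or RUNX core, and regions 5 and 7 held 1 GATA site each. The counts of the fullest Gse1 and Irf8 promoter windows kept their value. Among the listed genes, allowing 1 mismatch moved Cbfa2t3 from 12 to 17 reads and Zmym2 from 2 to 3. Between lanes, 0 of 9 regions differed under either alternative.

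Regions 2, 3, 4 and 9 held 3 to 10 reads in their best window in sample 2, which called them in 0 of 11 settings. Lane 8 alone, with 4084113 distinct reads beside 4150610 in sample 2, called regions 2, 3 and 4 and did not call region 9. Lane 8 gave most reads of sample 1, through which these regions were found, so its calls were favoured in advance. Nothing about the difference between samples is read from them. The cause of the difference between samples was not tested. No paired analysis was possible because there is only 1 group.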

Other observations

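In regions 1 and 8 the GATA site and the E-box overlap. Region 1 reads CATTTGATAG and region 8 reads CAAGTGATAA, both on the minus strand of mm8. At least 3 reads cover each base of the region 1 site, while some bases of the region 8 site rest on 1 read. Such an overlap was searched for after the sequences had been seen, and 12 of the 783 sample 2 regions (1.53%) held one within 100 bp of the summit. Its meaning for binding was not tested.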
